A study of Homo sapiens with 12 samples.

Results

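The mitochondrial ribosomal protein genes are the nuclear genes whose symbols begin with MRPL or MRPS followed by a number. They were chosen by name alone: 78 protein-coding genes of the 60671 genes counted carry such a symbol, 49 of them MRPL and 29 MRPS, and pseudogenes and antisense genes were left out. Expression was measured by RNA sequencing in 12 libraries of LS180, an established cell line from a human colorectal cancer. The line had 3 derivatives, in which doxycycline induces GFP, V5-tagged wild-type SOX9, or M303, a V5-tagged truncated SOX9. The transcription factor SOX9 marks stem and progenitor cells of the intestine, and the series title concerns its part in blocking differentiation. Each derivative was sampled without doxycycline and after 24 h with 0.5 µg/ml doxycycline, as 2 libraries per group. The GFP line is the control for both the drug and the construct system, and every line carried an inducible construct. Nothing says whether a derivative is 1 clone or whether the duplicates were grown separately. The p-values therefore reflect only how far these libraries vary, which could be technical variation.

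Mitochondria carry their own ribosome, which makes the few hydrophobic proteins of the respiratory chain and ATP synthase that mitochondrial DNA encodes. Its rRNAs, MT-RNR1 and MT-RNR2, are encoded in mitochondrial DNA, while all of its proteins are encoded in the nucleus, made in the cytosol and imported. Part of these proteins have counterparts in the bacterial ribosome and the others were added in mitochondria. Doxycycline, a tetracycline, binds the small subunit of bacterial ribosomes and also inhibits mitochondrial translation, so the agent that switches on the constructs acts on the very particle these genes build. The question here is whether their mRNAs responded to it in each of the 3 lines.

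The start regions of these genes are shown first, because promoter elements such as ETS, YY1 and NRF1 motifs are described as common among nuclear genes for mitochondrial proteins. RefSeq promoters (GRCh38.p14, from 250 bases before to 50 after a start, 1 start per gene) matched 69 of the 78 genes. The letters CCGGAAG, an ETS-family motif, stood on either strand in 29 of the 69 (42.0%), against 14.2% of 15843 protein-coding promoters of the same length. AAGATGGC, a YY1 motif, stood in 20 (29%), against 3.91%. The other letters searched, also on both strands, were near the background or rare. GCGC and GCGC with NN between them (NRF1) stood in 9 (13.0%, against 12%), CACGTG (E-box) in 6 (8.70%, against 8.88%), and TCTCGCGA in 2 (2.90%, against 1.75%). AACAATG, a SOX-type motif, stood in 1 (1.45%, against 2.35%), and TGACGTCA (CRE) in 0 (0%, against 2.59%). The letters searched do not contain each other. A match is a description of letters and not of binding.

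The following windows are the 250 bases before the start of each gene that the rule for named genes picks (by level, fold change or paralogy) whose window held a match and at most 30 bases of an annotated exon, on the gene's own strand, 5′ to 3′, with the match in capitals (CTTCCGG is CCGGAAG read on the other strand). Of the 6, 5 hold the ETS letters close to the start and MRPS18B holds the only SOX-type match among the 69.
MRPL33 (chr2:27771469-27771718, plus strand): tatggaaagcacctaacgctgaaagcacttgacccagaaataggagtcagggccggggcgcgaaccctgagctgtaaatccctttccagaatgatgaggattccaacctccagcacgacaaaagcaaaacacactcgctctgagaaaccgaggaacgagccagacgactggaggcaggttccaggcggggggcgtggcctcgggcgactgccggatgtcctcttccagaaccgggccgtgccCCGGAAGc
MRPS18A (chr6:43687792-43688041, minus strand): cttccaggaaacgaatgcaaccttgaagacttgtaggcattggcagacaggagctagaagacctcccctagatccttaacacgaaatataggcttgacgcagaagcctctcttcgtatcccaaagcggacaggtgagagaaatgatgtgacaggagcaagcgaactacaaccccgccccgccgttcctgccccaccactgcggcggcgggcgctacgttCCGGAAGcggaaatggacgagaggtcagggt
MRPS18B (chr6:30617590-30617839, plus strand): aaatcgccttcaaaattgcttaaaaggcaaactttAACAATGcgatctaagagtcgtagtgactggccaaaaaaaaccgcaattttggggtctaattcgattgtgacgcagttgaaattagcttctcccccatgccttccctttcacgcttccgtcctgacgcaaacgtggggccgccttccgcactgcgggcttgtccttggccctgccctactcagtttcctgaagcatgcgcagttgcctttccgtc
MRPS23 (chr17:57850045-57850294, minus strand): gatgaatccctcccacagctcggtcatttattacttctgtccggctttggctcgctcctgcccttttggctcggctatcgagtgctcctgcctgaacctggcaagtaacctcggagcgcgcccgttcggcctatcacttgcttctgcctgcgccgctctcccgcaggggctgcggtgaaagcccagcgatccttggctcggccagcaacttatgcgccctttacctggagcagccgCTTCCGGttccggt
MRPS26 (chr20:3045802-3046051, plus strand): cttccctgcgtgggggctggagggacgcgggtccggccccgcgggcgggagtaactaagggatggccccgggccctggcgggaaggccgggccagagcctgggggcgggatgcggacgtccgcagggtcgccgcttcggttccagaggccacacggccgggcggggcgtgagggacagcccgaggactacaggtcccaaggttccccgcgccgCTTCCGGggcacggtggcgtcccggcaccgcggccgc
MRPS31 (chr13:40771191-40771440, minus strand): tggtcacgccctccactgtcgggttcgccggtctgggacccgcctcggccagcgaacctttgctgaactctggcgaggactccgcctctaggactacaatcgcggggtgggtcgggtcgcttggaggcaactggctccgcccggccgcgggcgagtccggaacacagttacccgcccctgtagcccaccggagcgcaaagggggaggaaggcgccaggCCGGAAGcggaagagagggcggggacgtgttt

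The YY1 letters lay mostly on the other side of the start: 15 of their 21 matches were downstream of it and 6 upstream, whereas 30 of 39 ETS matches were wholly upstream, 6 downstream and 3 across the start. Stretches of 30 bases around the match show this for 6 of the 15 genes with a downstream match, those that the same rule picks. In each, the match in capitals contains ATG and reads in the sense direction of the gene.
MRPL38 (chr17:75904860-75904889, minus strand): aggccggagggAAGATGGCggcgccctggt
MRPL45 (chr17:38297170-38297199, plus strand): tttgcgggaacAAGATGGCagcccccatac
MRPL46 (chr15:88467362-88467391, minus strand): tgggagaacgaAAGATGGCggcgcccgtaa
MRPS18A (chr6:43687764-43687793, minus strand): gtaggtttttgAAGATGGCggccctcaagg
MRPS18B (chr6:30617852-30617881, plus strand): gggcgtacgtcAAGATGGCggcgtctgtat
MRPS24 (chr7:43869480-43869509, minus strand): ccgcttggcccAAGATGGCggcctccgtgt

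Shared start regions were also common. A gene on the opposite strand started within 1000 bases upstream, head to head, for 22 of the 69 genes (31.9%), against 18.7% of protein-coding promoters. This share and the distances that follow depend on which start represents a gene. By the RefSeq starts used, MRPL46 and MRPS11, a large and a small subunit gene on chromosome 15, start 320 bases apart. In the annotation used for counting they reach to 88467390 (MRPL46) and 88467453 (MRPS11). MRPS12 starts 181 bases from SARS2, which encodes the mitochondrial seryl-tRNA synthetase, and MRPS27 starts 133 bases from PTCD2, a mitochondrial RNA-processing gene. In the annotation used for counting, exons of MRPS12 overlap SARS2 and exons of MRPS27 overlap PTCD2.

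As a check of the labels, SOX9 was measured first. It stood at 399 and 393 CPM (counts scaled to library size, per 1000000) in the uninduced GFP line and at 405 and 371 CPM with doxycycline. In the M303 line it stood at 399 and 367 CPM without and 818 and 867 CPM with the drug, and in the SOX9 line at 357 and 381 CPM without and 712 and 761 CPM with it. The induced libraries of the M303 and SOX9 lines thus lay apart from all others. The count pools the endogenous gene with construct transcripts, and SOX9 also overlaps antisense genes that counting without strand cannot separate. All 12 intestinal epithelial markers listed were at 1 CPM or more in every library, and 13 markers of blood, endothelial and stromal cells summed to 4.47 to 6.74 CPM. Libraries held 31012775 to 48529770 counts, of which the mitochondrial ribosomal protein genes took 0.481% to 0.550%.

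These genes were expressed well above the middle of the transcriptome, and at very different levels from each other. Levels between genes are given per length, as mean CPM per kilobase of exon over the 12 libraries. The median of the 78 genes was 21.8 CPM per kb, with quartiles at 11.5 and 38.0, against a median of 2.63 for the 18219 genes tested, and 73 of the 78 lay above that value. The highest level was that of MRPS34 (chr16:1771890-1773150), a mitochondria-specific protein of the small subunit, at 119 CPM per kb. MRPL41, a mitochondria-specific protein of the large subunit, followed at 108, MRPS35 at 97.3 and MRPS26 at 87.3, the last 2 in the small subunit. MRPL3, which lies near the catalytic centre of the large subunit, stood at 65.4 CPM per kb. MRPS12, a protein of the decoding centre, stood at 40.7, and MRPL12, which forms the stalk that recruits translation factors, at 20.5. MRPL genes had a median level of 23.8 CPM per kb and MRPS genes 17.2. The 45 proteins with a bacterial counterpart and the 31 specific to mitochondria had medians of 23.8 and 23.0. The second class includes proteins placed differently from a bacterial counterpart. MRPL55 and MRPS36 were placed in neither class, although MRPL55 carries the bacterial-type family name bL31m.

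**Figure D1:**
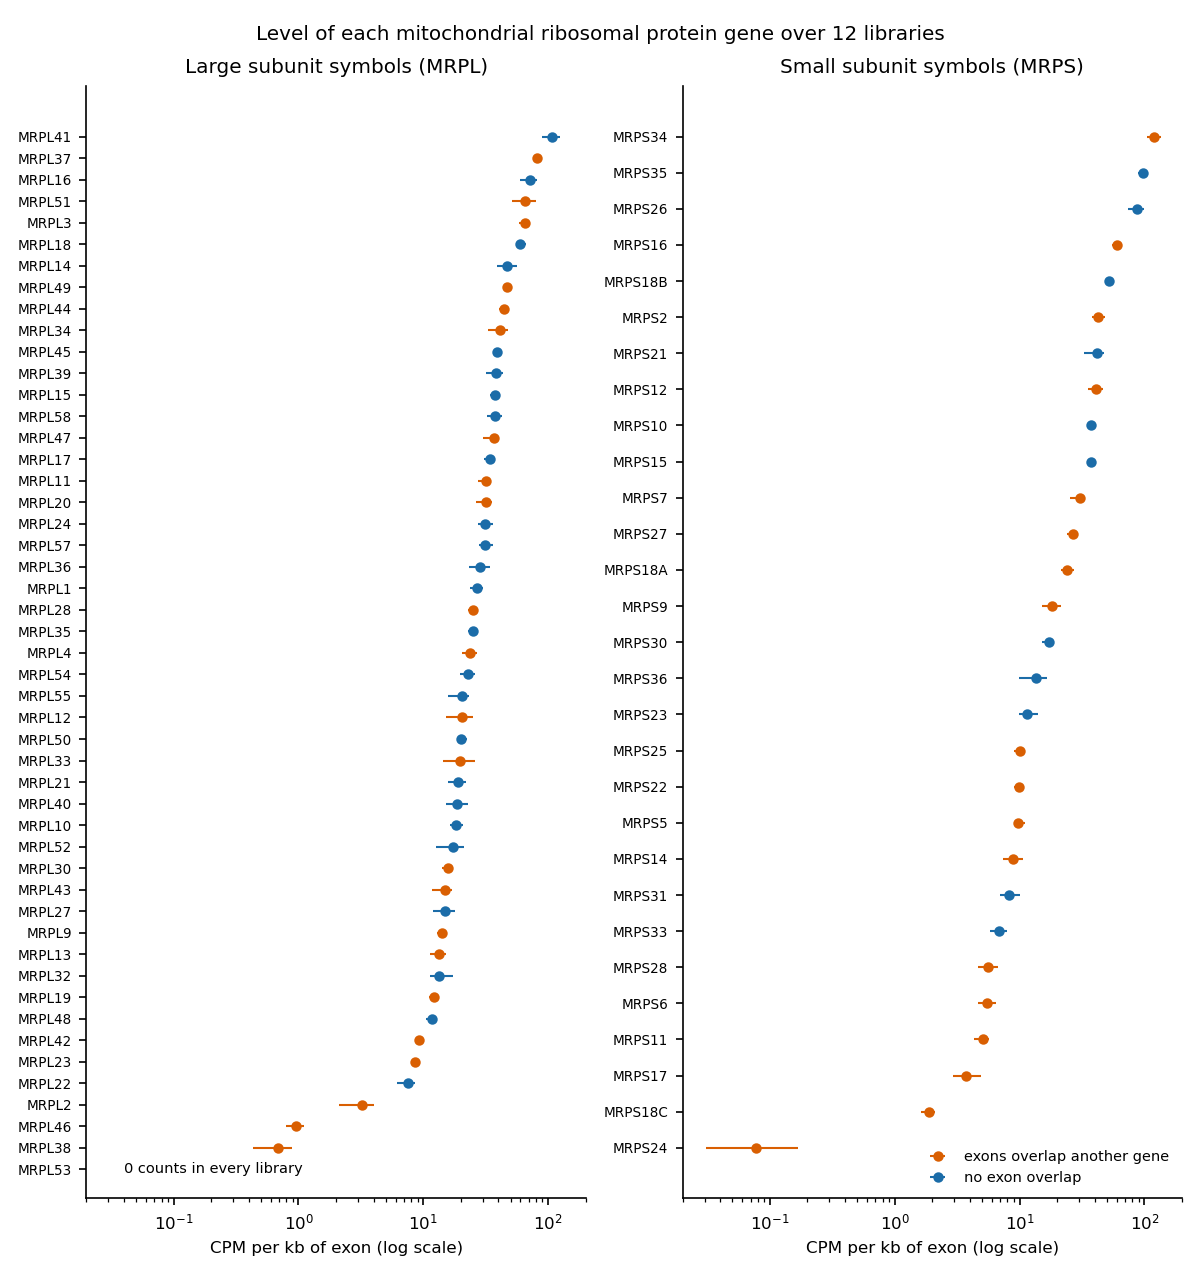
Level of each gene in CPM per kilobase of exon (horizontal log axis), large subunit symbols left and small subunit symbols right; points are means over 12 libraries and lines run from the lowest to the highest library. Levels run from 0.08 for MRPS24 to 119 for MRPS34, with MRPL53 at 0, and genes whose exons overlap another gene (orange) hold the 4 lowest places.

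The lowest values belonged to genes whose exons overlap other annotated genes, where ambiguous reads were not counted. MRPL53 (chr2:74471982-74472687) had 0 counts in every library, which allows up to 3 counts in each; 99.4% of its exon bases overlap CCDC142 or an unnamed gene on the opposite strand. MRPS24 (chr7:43866558-43869893) had 3 to 14 counts per library and 0.08 CPM per kb; it overlaps the readthrough gene URGCP-MRPS24. MRPL38 stood at 0.68 and MRPL46 at 0.95 CPM per kb, and both overlap unnamed genes. Exon overlap was present for 42 of the 78 genes, whose median level was 17 CPM per kb, and absent for 36, whose median was 27.6. The lowest of those 36 stood at 6.78 CPM per kb. What part of the low values is lost reads was not tested. MRPL53 left 77 genes to test, and 76 of these had a mean of at least 1 CPM. Pseudogenes of this family by symbol, 79 in the table, held at most 0.048% as many counts as the genes themselves. Counting had no option for reads that map to several places, so such reads are not part of this share.

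The 3 paralogs that all carry an MRPS18 symbol show why symbol and subunit need not match. MRPS18B and MRPS18C encode different small subunit proteins, and MRPS18A encodes a protein now assigned to the large subunit. Their levels were 52.2 (MRPS18B), 24.0 (MRPS18A) and 1.88 CPM per kb (MRPS18C), an order without overlap between any of the 12 libraries. MRPS18C shares 40.2% of its exon bases with ABRAXAS1 and MRPS18A 47.0% with RSPH9, while MRPS18B overlaps no other gene. MRPS36, likewise, keeps its symbol although its protein is now assigned to the oxoglutarate dehydrogenase complex, and stood at 13.5 CPM per kb.

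Levels varied across libraries about as much as those of all genes at 1 CPM or more. Among the 76 genes of the family at 1 CPM or more, the coefficient of variation over all 12 libraries ran from 2.43% to 17.6%. Its median was 8.48%, against 9.35% for all 13147 genes at 1 CPM or more, which were not matched to the family for level. MRPL45, which sits at the polypeptide exit and helps anchor the ribosome to the inner membrane, varied by 3.21%, and MRPL33, a small protein of the large subunit, by 17.4%. The summed CPM of MRPL genes was 1.55 to 1.63 times that of MRPS genes in every library.

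Part of the variation was common to many of the genes, library by library. As the median over genes of the log2 CPM minus each gene's own 12-library mean, the uninduced GFP libraries lay at 0.02 and -0.14 and the induced ones at -0.07 and 0.08. The M303 line lay at 0.06 and 0.10 without and at -0.03 and -0.01 with doxycycline. The SOX9 line lay at 0.10 and -0.01 without and at -0.04 and -0.06 with it. In GFP replicate 2 without doxycycline 13 of 77 genes stood above their own mean, and in M303 replicate 2 without doxycycline 65 did. Over all genes tested the same 2 libraries had 50.1% and 51.1% above. The 77 cytosolic ribosomal protein genes moved beside them, at 0.01 and -0.22, then -0.17 and 0.09 in the GFP line, 0.05 and 0.10, then 0.00 and 0.03 in the M303 line, and 0.13 and 0.03, then 0.02 and -0.01 in the SOX9 line. Within a group, replicate 1 minus replicate 2 had a median of 0.14 log2 units (uninduced GFP), -0.13 (induced GFP), 0.12 (uninduced SOX9), 0.04 (induced SOX9), -0.03 (uninduced M303) and -0.05 (induced M303). The first 3 of these were larger in size than the median difference with doxycycline in their own line, given below, and the other 3 were smaller. The part of a shift common to ribosomal protein genes in those differences was not tested.

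**Figure D2:**
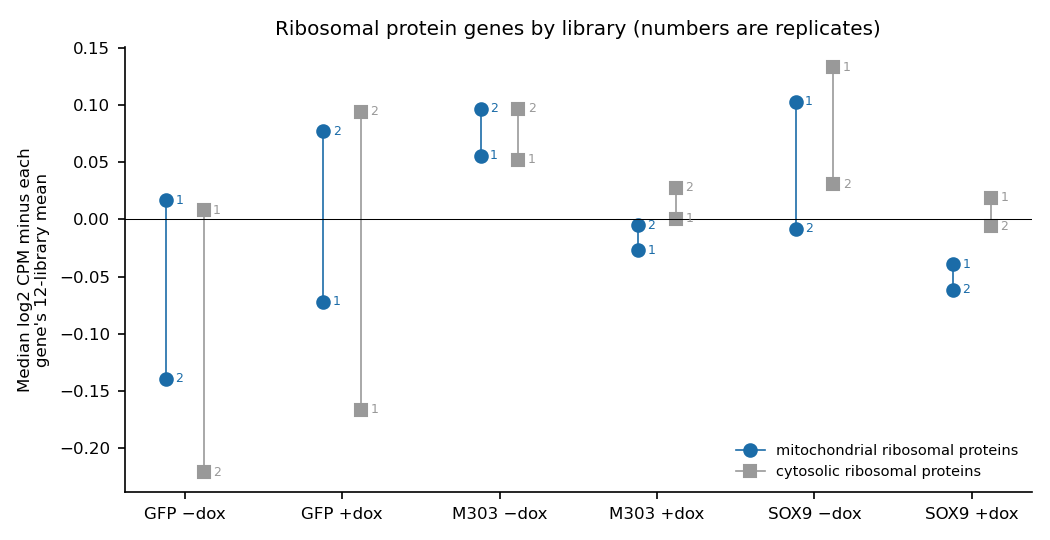
Median deviation from the 12-library mean (log2 CPM, vertical axis) of the 77 mitochondrial and the 77 cytosolic ribosomal protein genes in each library, by group; lines join the replicates, which are numbered. The GFP libraries spread from -0.14 to 0.08 for the mitochondrial set, and the replicates of each of the 6 groups stand in the same order for the cytosolic set.

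In the GFP line, where doxycycline induces no SOX9, no gene of the family passed the threshold. A gene was called at an adjusted p under 0.05 in edgeR's quasi-likelihood test over all 18219 genes; this called 0 of the 77 genes and 0% of all genes, while DESeq2 also called 0 of them. At an unadjusted p under 0.05, 5 were higher (1.94% of all genes) and 0 were lower (1.25%). The median log2 fold change was 0.05, with 54 genes above 0 (50.1% of all genes) and 23 below (49.8%), against a median of 0.00 over all genes. The median turned to -0.01 without uninduced replicate 2 and to -0.02 without induced replicate 2, and was 0.14 and 0.12 without uninduced and induced replicate 1. Both induced libraries were above both uninduced ones for 13 genes (13.5% of all genes) and below for 3 (13.8%). MRPL2, a protein of the core of the large subunit, stood at 6.44 and 4.58 CPM without and 6.21 and 8.71 with the drug, a log2 fold change of 0.44 (SE 0.21). MRPL33 stood at 25 and 22 CPM without and 26.8 and 34.2 with it, a log2 fold change of 0.38 (SE 0.17). The groups overlapped for MRPL2 and not for MRPL33. Exons of MRPL2 overlap KLC4 and an unnamed gene, and those of MRPL33 overlap BABAM2, so shared reads were not counted. At the other end MRPL9 changed by -0.14 (SE 0.11), and its groups did not overlap, with 25.9 and 25.8 against 23.4 and 23.5 CPM.

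In the M303 line most of the family lay slightly below its uninduced level, again with no call. The edgeR test called 0 of 77 genes, against 0.00549% of all genes, and DESeq2 also called 0. At an unadjusted p under 0.05, 0 were higher (1.96% of all genes) and 2 lower (1.67%). The median log2 fold change was -0.09, with 12 genes above 0 (50.2% of all genes) and 65 below (49.8%), and became -0.06 without uninduced replicate 2. Both induced libraries lay below both uninduced ones for 32 genes, against 16.8% of all genes, and above for 1, against 17.1%. MRPS26 stood at 94.0 and 101.2 CPM without and 82.7 and 80.8 with doxycycline, a log2 fold change of -0.26 (SE 0.09). MRPS36 stood at 22.3 and 25.2 CPM without and 17.3 and 20.6 with it, a change of -0.33 (SE 0.16). MRPS28, a small subunit protein, stood at 12.1 and 11 CPM without and 9.90 and 8.82 with it, a change of -0.30 (SE 0.16). These 3 genes had groups that did not overlap, and their adjusted p was 1.00 in edgeR's test. MRPS22, a mitochondria-specific small subunit protein whose variants cause combined respiratory chain deficiency, changed by 0.10 (SE 0.09), from 53.9 and 49 to 54.4 and 55.5 CPM.

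In the SOX9 line, where many other genes did change, most of the family again lay slightly below its uninduced level. The edgeR test called 541 genes (2.97%), 330 higher and 211 lower, and none of the 77; DESeq2 called 1, MRPS23. At an unadjusted p under 0.05, 0 of the 77 were higher (7.02% of all genes) and 9 lower (6.81%). The median log2 fold change was -0.09, with 14 genes above 0 (50.9% of all genes) and 63 below (49.1%), against a median of 0.01 over all genes. Both induced libraries lay below both uninduced ones for 29 genes, against 21.5% of all genes, and above for 3, against 23.2%. The median became -0.04 without uninduced replicate 1 and -0.15 without uninduced replicate 2. Intestinal epithelial markers moved in the same libraries: edgeR called 7 of 12 lower and 0 higher, with a median of -0.37, and their summed level went from 11786 and 13327 to 10836 and 10805 CPM. None of the 12 was called in the GFP or M303 induction. The part of that change in the family's shift was not tested.

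MRPS23 (chr17:57834781-57850056), a mitochondria-specific small subunit protein, came closest to a call. It stood at 89.4 and 79.4 CPM in the uninduced SOX9 line and at 67.1 and 65.3 CPM after induction. In the GFP line it stood at 72.6 and 62.6 CPM without and 68.7 and 79.0 with doxycycline, and in the M303 line at 70.3 and 79.1, then 71.8 and 67.6. The induced SOX9 libraries were therefore within the range of the uninduced GFP libraries, and the uninduced SOX9 libraries were the highest of all. The log2 fold change in the SOX9 line was -0.35 (SE 0.10, 95% interval -0.55 to -0.15) with an adjusted p of 0.058 in edgeR's test. It passed under 9 of 17 alternatives, among them DESeq2 (adjusted p = 0.0254), no filter on low counts (0.0116) and the SOX9 line fitted alone (0.0467), and the adjusted p ran from 0.0116 to 0.356 over all of them. MRPS23 has no exon overlap and no pseudogene in the table. As a difference between the SOX9 and GFP inductions it was -0.48 (SE 0.14, adjusted p = 0.162 in edgeR's test).

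The next lowest estimates in the SOX9 line did not pass either. MRPL46 changed by -0.30 (SE 0.20), from 6.93 and 6.36 to 5.11 and 5.72 CPM. MRPL12 changed by -0.28 (SE 0.17), from 24.2 and 23.5 to 20.0 and 19.3 CPM, values inside the 15.2 to 25.1 CPM of the uninduced GFP line. MRPS12 changed by -0.26 (SE 0.09, adjusted p = 0.164 in edgeR's test), from 91.0 and 93.5 to 79.0 and 75.1 CPM, beside 78.5 CPM in 1 induced GFP library. MRPL41 changed by -0.26 (SE 0.11), from 69.6 and 65.3 to 59.2 and 53.1 CPM. The highest values were those of MRPL23, at 0.14 (SE 0.10), and MRPS18C, at 0.12 (SE 0.17).

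**Figure D3:**
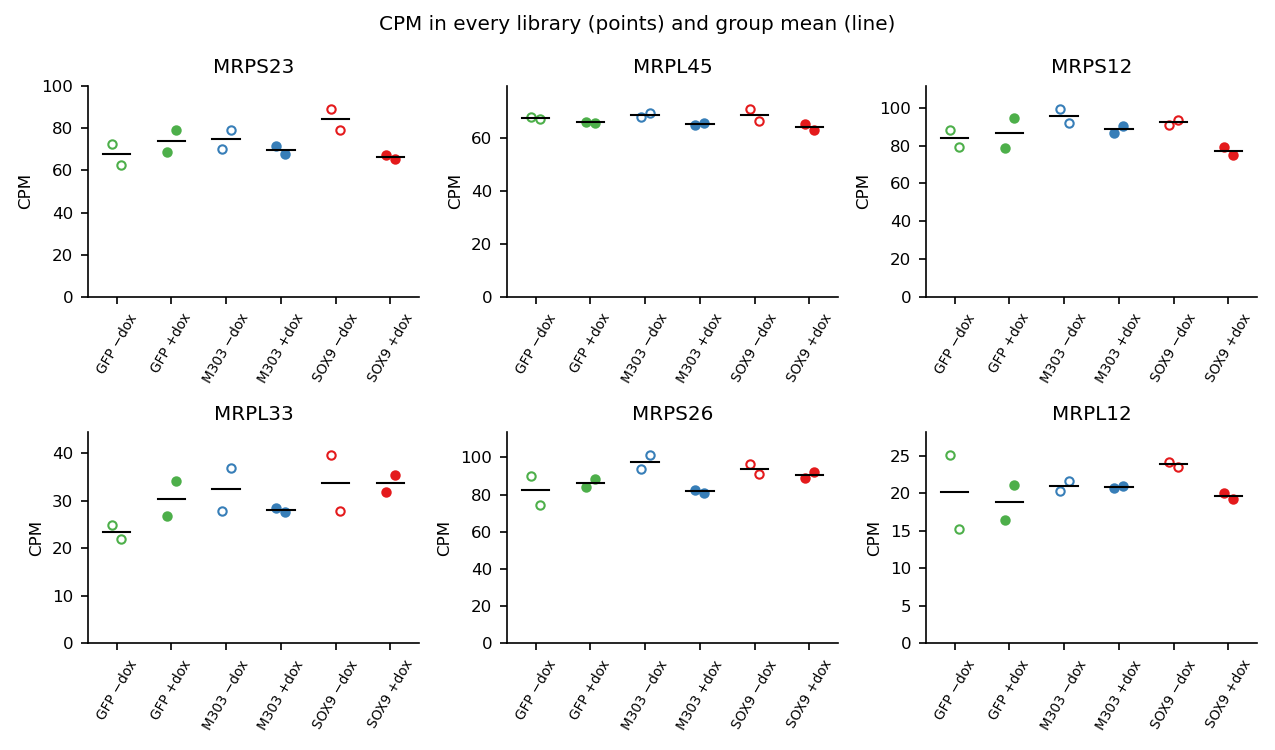
CPM of 6 genes in every library (open points without and filled points with doxycycline; vertical axis from 0) and the group means (lines). MRPS23 stands at 89.4 and 79.4 CPM without and 67.1 and 65.3 with doxycycline in the SOX9 line, while its groups overlap in the other lines, and MRPL45 stays between 62.9 and 70.9 CPM throughout.

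The mean of the 3 inductions, which rest on separate libraries, was tested next. A call in this mean need not be common to the lines. SOX9 itself was called in it, at a log2 fold change of 0.70, with -0.03 in the GFP line. The edgeR test called 186 genes (1.02%) and none of the 77, as did DESeq2 for these 77. At an unadjusted p under 0.05, 0 were higher (5.24% of all genes) and 1, MRPS2, was lower (4.34%). The median log2 fold change was -0.04, with 16 genes above 0 (51.2% of all genes) and 61 below (48.8%). It was -0.02 without uninduced or induced GFP replicate 1 or uninduced SOX9 replicate 1, and -0.07 without induced GFP replicate 2. All 95% intervals of the 76 genes at 1 CPM or more lay within -0.5 and 0.5 log2 units, which is a change of at most 1.41-fold either way. In single lines 66 (GFP), 67 (M303) and 70 (SOX9) of the 76 intervals did so. The lowest estimates were those of MRPL46 at -0.16 (SE 0.12) and MRPL36, a small zinc-binding protein of the large subunit, at -0.14 (SE 0.09). The highest were MRPS31 at 0.11 (SE 0.09) and MRPL16, a core protein of the large subunit, at 0.09 (SE 0.06).

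**Figure D4:**
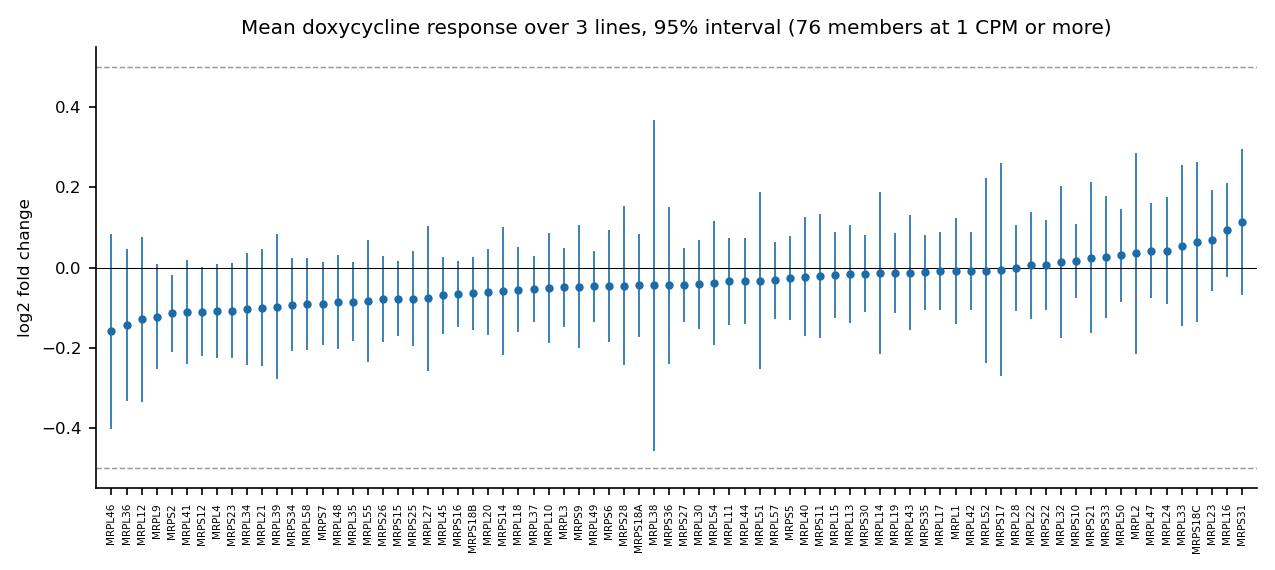
Mean log2 fold change with doxycycline over the 3 lines (vertical axis) for the 76 genes at 1 CPM or more, in order of size, with 95% intervals from edgeR; dashed lines mark -0.5 and 0.5. Every interval lies between them, and the estimates run from -0.16 for MRPL46 to 0.11 for MRPS31.

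The log2 fold change was below 0 in all 3 lines for 16 of 77 genes (12.8% of all genes) and above 0 for 5 (13.9%). A single gene, MRPL45, had both induced libraries below both uninduced ones in every line (0.746% of all genes), and 0 had both above (0.686%). MRPL45 (chr17:38297023-38323217) stood at 67.7 and 67.1 against 66.0 and 65.5 CPM in the GFP line, 67.7 and 69.1 against 64.9 and 65.3 in the M303 line, and 70.9 and 66.1 against 65 and 62.9 in the SOX9 line. Its mean change was -0.07 (SE 0.05, adjusted p = 0.694 in edgeR's test), a small step between values of little spread.

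**Figure D5:**
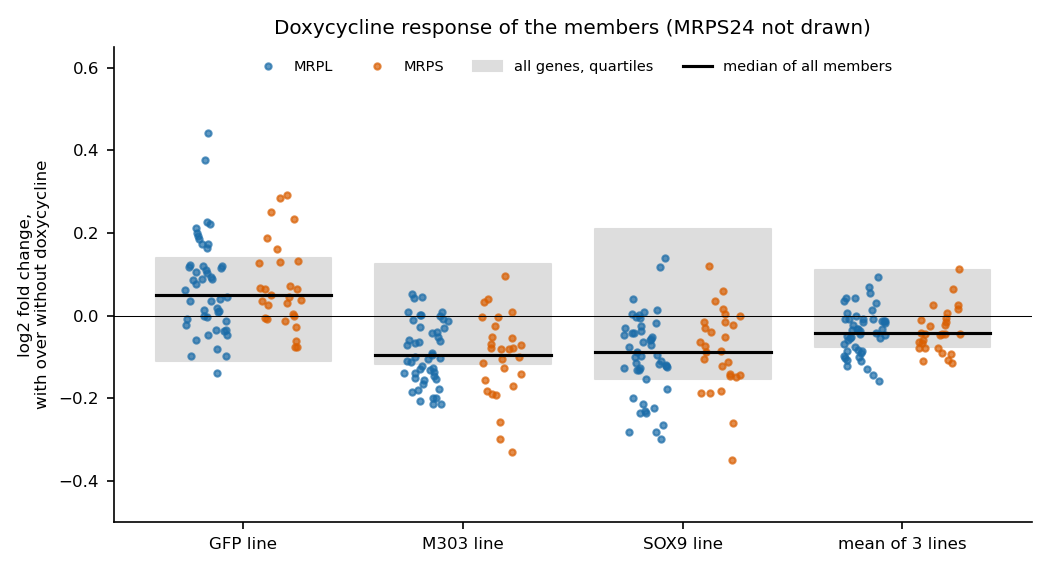
Log2 fold change of each gene with against without doxycycline (vertical axis) in the 3 lines and as their mean, MRPL blue and MRPS orange; black lines are medians of all 77 genes and grey bands the quartiles of all genes tested. The medians are 0.05, -0.09, -0.09 and -0.04, and most points lie inside the grey bands. The genes behind the bands were not matched to the family for level. MRPS24, at 0.20 CPM, is not drawn.

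Whether the inductions differed was tested as an interaction, and each of the comparisons with GFP uses the same GFP libraries. No gene of the family was called in SOX9 minus GFP (0.895% of all genes called), M303 minus GFP (0.00549%) or SOX9 minus M303 (0.489%), by edgeR or DESeq2. At an unadjusted p under 0.05, 7 were lower in SOX9 minus GFP (4.17% of all genes), 10 in M303 minus GFP (2.03%) and 0 in SOX9 minus M303 (3.09%), and 0 were higher in each (4.84%, 1.90% and 3.90%). The median differences were -0.14, -0.16 and -0.00 log2 units. Without uninduced GFP replicate 2 the first 2 were -0.07 and -0.07, without induced GFP replicate 2 they were -0.08 and -0.07, and over all single libraries left out they ran from -0.21 to -0.07 and from -0.24 to -0.07. Against GFP, MRPL33 differed by -0.58 (SE 0.23) in the M303 line, which includes the 0.38 in the GFP line itself. Before induction the median log2 difference from the GFP line was 0.09 in the SOX9 line and 0.15 in the M303 line. These became 0.18 and 0.24 without uninduced GFP replicate 1 and 0.03 and 0.07 without replicate 2, and the first was 0.05 and 0.15 without uninduced SOX9 replicate 1 and 2 in turn. The same uninduced GFP libraries enter all of these values. In the uninduced comparisons edgeR called 0 of 77 genes, against 0% (SOX9 line) and 0.00549% (M303 line) of all genes. At an unadjusted p under 0.05, 9 (2.96% of all genes) and 16 (3.47%) were higher and 0 lower in either (1.79% and 2.62%), and DESeq2 called 0. MRPL33 gave 0.52 (SE 0.17) in the SOX9 line and 0.47 (SE 0.17) in the M303 line.

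The genes with MRPL and with MRPS symbols, and the protein classes, had similar medians. In the GFP, M303 and SOX9 inductions the median log2 fold change was 0.07, -0.10 and -0.10 for the 48 MRPL genes tested and 0.04, -0.08 and -0.07 for the 29 MRPS genes. For the 45 genes with bacterial counterparts it was 0.04, -0.08 and -0.09, and for the 30 tested that are specific to mitochondria 0.04, -0.10 and -0.08. The 36 genes free of exon overlap had medians of 0.10, -0.11 and -0.07. Of 5 mitoribosomal proteins named otherwise, 0 were called in any induction. Among them DAP3, a GTP-binding protein of the small subunit, stood at 137 to 160 CPM over the 12 libraries, with a mean change of 0.02 (SE 0.05).

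Of the genes listed for mitochondrial translation, ribosome assembly, DNA expression, protein folding and biogenesis, 2 passed the test, both in the SOX9 line. The shares of all genes called were 0% (GFP), 0.00549% (M303), 2.97% (SOX9) and 1.02% (mean). In the 3 inductions and their mean, edgeR called 0 of 22 mitochondrial aminoacyl-tRNA synthetases, 0 of 31 assembly factors, 0 of 26 genes of mitochondrial DNA expression and 0 of 17 chaperones and proteases. Of 17 translation factors 1 was called, MTRF1L, a release factor, which fell by 0.50 (SE 0.12, adjusted p = 0.0244) in the SOX9 line. It stood there at 20.3 and 19.4 CPM without and 14.4 and 13.6 with doxycycline, and the call was lost without any single library of that line (adjusted p up to 0.276). The elongation factor TUFM changed by -0.18 (SE 0.07, adjusted p = 0.228) in that line, from 540 and 568 to 492 and 487 CPM. Of 13 regulators of mitochondrial biogenesis 1 was called, the nuclear receptor ESRRA, which fell by 0.39 (SE 0.08, adjusted p = 0.0085) in the SOX9 line. It went from 155 and 182 to 129 and 128 CPM, and the call was lost without uninduced replicate 2 or either induced library (adjusted p up to 0.191). TFAM, which packages mitochondrial DNA, changed by -0.02 (SE 0.08) in that line. Apart from the biogenesis regulators, most genes of each list lay below 0 in the SOX9 line. These were 16 of 17 chaperones and proteases (median log2 fold change -0.18), 24 of 26 genes of mitochondrial DNA expression (-0.12) and 27 of 31 assembly factors (-0.10). The others were 13 of 17 translation factors (-0.13) and 15 of 22 synthetases (-0.09). Of all genes 49.1% lay below 0, with a median of 0.01. For the biogenesis regulators the median deviation from each gene's own mean overlapped between the groups of that line. It was 0.03 and -0.04 without and -0.002 and -0.05 with doxycycline. Their summed level went from 1235 and 1240 to 1154 and 1163 CPM.

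Some of the transcripts that the mitochondrial ribosome translates passed the test, but only in the mean of the 3 lines. Of 13 proteins encoded in mitochondrial DNA, 4 were called lower in the mean of the 3 lines (1.02% of all genes called) and 0 higher, and all 13 lay below 0, with a median of -0.18 against 0.00 over all genes. MT-CO1, the catalytic subunit of cytochrome oxidase, went from 4570 and 4303 to 3469 and 3450 CPM in the GFP line, from 4131 and 3669 to 3930 and 3767 in the M303 line, and from 4219 and 4415 to 3909 and 3649 in the SOX9 line. The induced libraries were lower without overlap in the GFP and SOX9 lines and overlapped in the M303 line. The mean change of MT-CO1 was -0.19 (SE 0.04, adjusted p = 0.0154 in edgeR's test), and those of MT-ND4, MT-ND5 and MT-ND6, subunits of respiratory complex I, were -0.21, -0.23 and -0.31. MT-ND5 lies outside the rule for named genes and was named after its value was seen. Every one of these 4 calls was lost without some single library, 3 for MT-CO1, 4 for MT-ND4 and 6 each for MT-ND5 and MT-ND6, with adjusted p up to 0.117. No gene of the list was called in a single line. The median deviation of the 13 genes from their own means, lower library first, was 0.05 and 0.24 without and -0.19 and -0.08 with doxycycline in the GFP line. It was -0.04 and 0.07, then -0.09 and 0.005, in the M303 line, where the groups overlapped. In the SOX9 line it was 0.11 and 0.12, then -0.22 and 0.01. Replicates of a group thus stood up to 0.22 log2 units apart. The mitochondrial rRNAs were not called: MT-RNR2 changed by -0.18 (SE 0.07, adjusted p = 0.443), which passed without the filter on low counts (0.00383) and without induced GFP replicate 1 (0.0109), and MT-RNR1 by -0.06 (SE 0.17). Since oligo(dT) capture selects for poly(A) tails, counts of mitochondrial transcripts can also move with their tails, which was not tested.

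Of 22 genes of the ATF4 and mitochondrial stress response, 1 was called in the mean of the 3 lines, where 1.02% of all genes were. SLC7A11, the cystine transporter, rose by 0.26 (SE 0.05, adjusted p = 0.0125) and in the SOX9 line by 0.56 (SE 0.09, adjusted p = 0.000577), from 113 and 103 to 152 and 165 CPM. In the other lines its estimate was 0.09 (GFP, SE 0.09) and 0.13 (M303, SE 0.09), neither of them called. The first of these calls was lost without induced SOX9 replicate 2 (adjusted p = 0.0771). TRIB3, a pseudokinase of the same list, fell by 0.37 (SE 0.08, adjusted p = 0.0093) in the SOX9 line, a call lost without uninduced replicate 2 or induced replicate 1. ATF4 itself stood at 389 to 490.5 CPM over the 12 libraries, with a mean change of 0.06 (SE 0.05). ASNS, its target in amino acid synthesis, was at 1.18 to 2.23 CPM. DDIT3, a stress-induced transcription factor, was at 1.78 to 4.40 CPM, with a mean change of 0.47 (SE 0.16, adjusted p = 0.293 in edgeR's test). By line its estimate was 0.75 (GFP, SE 0.29), 0.27 (M303, SE 0.28) and 0.38 (SOX9, SE 0.28), none of them called.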

How the data were processed

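The authors deposited raw counts of reads for each gene. The submitters' processing notes name the aligner: the authors aligned reads to hg38 with STAR 2.7.0a. Per the file headers, featureCounts 2.0.1 counted them with Ensembl release 101 and no option for pairs, strand, multi-mapping or multi-overlap. Mates were thus counted singly, and reads shared by exons of several genes, on either strand, were not counted.

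Counts were tested here with edgeR 4.0.16 in R 4.3.3 (robust quasi-likelihood F-test, Benjamini-Hochberg adjustment). The model held all 12 libraries and a mean for each group, which left 6 residual degrees of freedom. TMM factors ranged from 0.981 to 1.02, filterByExpr left 18219 genes, and the biological coefficient of variation was 10.6%. CPM values are counts scaled with the TMM factors. A gene was called at an adjusted p under 0.05. There were 9 comparisons: 3 inductions, their mean, their 3 differences, and the SOX9 and M303 lines against GFP without doxycycline. The 19 alternatives are DESeq2 1.42.0, RLE size factors, no filter, the replicate number as a block, each library left out, and each line alone. Limits of 0 counts cover counting error only.

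The genes and lists were chosen with earlier results of these data known. The text names every gene of the family that was called, the 4 highest and 4 lowest per length, and the 2 highest and 2 lowest fold changes of each induction and of their mean among genes at 1 CPM or more. It adds genes without overlap in all 3 lines, the MRPS18 paralogs, fixed genes, and up to 3 called genes of each other list. MRPS11, MRPS27, MRPS2, MRPL20 and MT-ND5 were named after their values were seen. MRPL55 is named only because it was placed in no protein class. Of the listed symbols GTPBP5, WBSCR16 and FASTKD4, older names, had no match. Columns of no sample used were 0. Of 9 genes without a RefSeq promoter, none is shown.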

Additional observations from a re-analysis of the deposited data

Results flagged for a closer look

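The SOX9 count responded differently to doxycycline in the lines, by a test of the difference between inductions in edgeR. The SOX9 and M303 lines carry inducible SOX9 constructs, and the count pools their transcripts with the endogenous gene. A difference from the GFP line was therefore built into the design. The change of this count was 1.03 log2 units larger in the SOX9 line than in the GFP line (adjusted p = 8.89e-06 in edgeR's test). It was 1.17 larger in the M303 line than in the GFP line (adjusted p = 7.92e-06 in edgeR's test). Both induced libraries were above both uninduced ones in the SOX9 and M303 lines. No mitochondrial ribosomal protein gene was singled out in this way.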

How the results depend on the processing

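The count of mitochondrial ribosomal protein genes called stayed at 0 under every alternative run except for 3 comparisons. In SOX9 induction 1 gene, MRPS23, was called by DESeq2, without the low-count filter and with the SOX9 line alone; over single libraries left out the count ran from 0 to 1. In SOX9 minus GFP 1 gene (MRPS23) was called without the filter, and 0 to 1 (MRPL20, without uninduced GFP replicate 1) over libraries left out. Between the uninduced SOX9 and GFP lines 1 (MRPL33) was called without the filter. The cause was not tested. The median log2 fold change of the family kept its sign under RLE size factors, DESeq2, no filter and single lines. With a library left out it ran from -0.02 to 0.14 in GFP, -0.10 to -0.06 in M303, -0.15 to -0.04 in SOX9 and -0.07 to -0.02 in their mean, -0.06 to 0.05 in SOX9 minus M303, -0.21 to -0.07 in SOX9 minus GFP, -0.24 to -0.07 in M303 minus GFP, and 0.03 to 0.18 and 0.07 to 0.24 for the uninduced SOX9 and M303 lines.

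Counts over all genes moved more. DESeq2 called 2 in GFP induction, 2 in M303 induction, 2 between the uninduced SOX9 and GFP lines and 280 in the mean. Without the filter these were 4, 9, 17 and 296, with 22 between the uninduced M303 and GFP lines, 11 in M303 minus GFP, 270 in SOX9 minus GFP and 147 in SOX9 minus M303. The M303 line alone gave 3. Leaving out each library gave 0 to 9 (GFP), 1 to 2 (M303), 231 to 675 (SOX9), 115 to 209 (mean), 95 to 229 (SOX9 minus GFP), 1 to 12 (M303 minus GFP), 57 to 107 (SOX9 minus M303), and 0 to 39 and 0 to 56 for the uninduced SOX9 and M303 lines against GFP. The extremes of 9, 229, 12, 39 and 56 came without uninduced GFP replicate 1, and 231, 115, 95 and 57 without induced SOX9 replicate 2.

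Of 45 single-gene estimates printed, 6 of 744 values under an alternative had the other sign. All came with 1 library left out, over which DAP3 ran from -0.023 (without induced GFP replicate 2) to 0.051, MT-RNR1 from -0.21 to 0.053 (without induced M303 replicate 1), in SOX9 induction, TFAM from -0.071 to 0.026 (without uninduced SOX9 replicate 1), and, in GFP induction, SLC7A11 from -0.054 (without uninduced GFP replicate 1) to 0.24. A group left with 1 library was taken to vary like the others. Replicate numbers showed little pairing within a line, where the correlation of replicate 1 minus 2 differences between its groups was -0.05 (GFP), -0.08 (M303) and 0.06 (SOX9). Between groups of different lines it ran from -0.24 (induced GFP, uninduced SOX9) to 0.22 (induced M303, uninduced SOX9). Such correlations cannot exclude that samples were handled in pairs. With the replicate number as a block, 452 genes in place of 541 were called in SOX9 induction, 159 in place of 186 in the mean, and 0 of the family in all 9 comparisons. MRPS24 and MRPL53 had too few counts to show a change, and how much of this is depth and how much exon overlap was not tested.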
